A study of Macaca mulatta with 30 samples.

Results

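Thymus was compared with the other tissues of a rhesus macaque array study, through the 6 arrays labelled thymus out of 30 arrays in all. The other 24 arrays carried RNA from cerebral cortex, fibroblasts, pancreas and testis, with 6 arrays per tissue. One RNA preparation per tissue was divided into aliquots, and 2 aliquots were labelled and hybridized at each of 3 centers (Oregon, Nebraska and Yerkes). The fibroblasts were an immortalized cell line, no group had a treatment in the labels, and animal age, sex and number are not given in the sources used here. The thymus, pancreas and testis RNA was extracted at Oregon, the cortex RNA at Yerkes and the fibroblast RNA at Nebraska, so extraction site and tissue cannot be told apart for cortex and fibroblasts. Because all arrays of a tissue share 1 RNA, the p-values below measure only the spread between labellings and hybridizations, and a difference between tissues may include the animal from which the tissue came. The pancreas arrays stood apart in the quality measures of the study, and 5 housekeeping genes averaged 10.99 to 11.32 on the thymus arrays and 9.16 to 9.66 on the pancreas arrays, so counts are also given without pancreas. A level in a bulk tissue also cannot separate the number of cells of a type from the RNA in each cell.

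The thymus is the organ in which T cells mature. Precursors from the bone marrow rearrange their T cell receptor genes in the cortex of the organ, divide in bursts, pass through a stage with both CD4 and CD8 on the surface, and are tested against peptides that epithelial and dendritic cells display. Most cells fail this test and die. Developing T cells, called thymocytes, make up most of the cells of a young thymus. They lie loosely within a meshwork of epithelial cells and are not anchored to a matrix as fibroblasts are.

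A gene was called higher in thymus when its log2 signal exceeded that of each of the other 4 tissues, and lower when it was under each of them, with limma adjusted p under 0.05 for the weakest of the 4 differences. The difference from the nearest tissue, given below for each gene, is the smallest of the 4. Among 14133 genes with a symbol, 1691 were higher than in each other tissue (12% of the genes) and 1156 were lower (8.18%). A difference of at least 1 on the log2 scale, that is 2-fold, was reached by 470 genes in the higher direction (3.33%) and by 158 in the lower direction (1.12%). At a difference of at least 2 the split was 161 genes higher (1.14%) and 16 lower (0.113%). Without the pancreas arrays, 1964 genes were higher and 1653 lower, and 531 and 316 by at least 1. The genes nearest to the limit of 1 were CHST11 at 1.007 and NFYA at 1.000 among the higher genes, with the unrounded NFYA value just below 1. Among the lower genes they were THSD7A at -1.001 and SLC30A4 at -0.995. Over all genes the median of thymus minus the mean of the other tissues was -0.13.

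**Figure D1:**
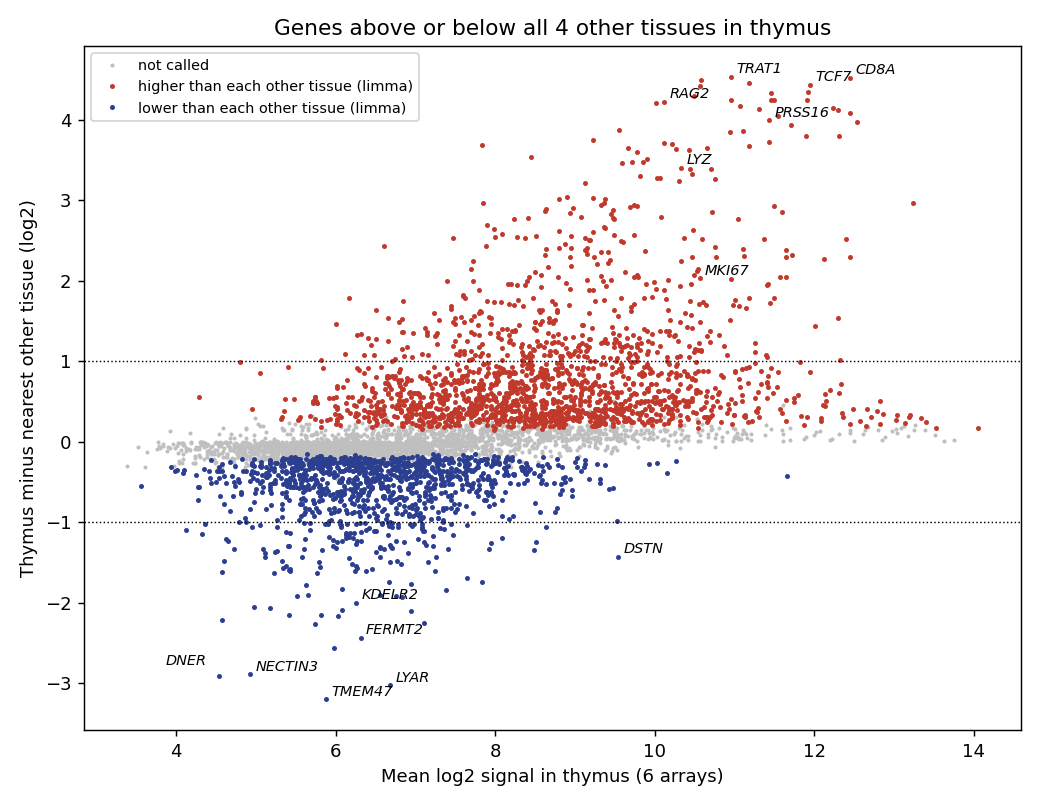
Each point is 1 gene that lay above or below all 4 other tissues in thymus; the x axis is its mean log2 signal in the 6 thymus arrays and the y axis its log2 difference from the nearest other tissue. Red points (1691) were higher and blue points (1156) lower by limma, and dotted lines mark a difference of 1. The higher genes reach 4.53 and the lower genes -3.20.

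The 470 and the 158 genes held different parts of the signal range. The median higher gene stood at percentile 93.8 of the thymus arrays, and 5 of the 470 were below the array median. The median lower gene stood at percentile 49.6, and 81 of the 158 were below the array median, with the highest other tissue a median of 3.13 above thymus. No overlap between the 6 thymus arrays and the other 24 was seen for 460 of the 470 (5.46% of all genes lay above in this way) and for 155 of the 158 (2.37% lay below). All 470 and all 158 were on the same side of each other tissue at every center, and 371 and 110 kept a difference of at least 1 at all 3 centers. These genes were chosen for such a difference on the same arrays, and the centers shared 1 RNA per tissue. The agreement in side was therefore largely set by the choice and is no separate evidence. Testis was the nearest tissue for 165 of the 470, pancreas for 138, fibroblasts for 122 and cortex for 45. For the lower genes pancreas was nearest in 56, cortex in 43, testis in 34 and fibroblasts in 25.

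The label was checked on CD8A, TCF7 and TRAT1. CD8A encodes a chain of the CD8 coreceptor and ran from 12.29 to 12.67 on the log2 scale in the thymus arrays (median 12.37), against 7.67 to 8.28 (median 7.84) in testis, the nearest tissue. TCF7, a transcription factor that starts the T cell program, lay at 11.74 to 12.34 (median 11.85) in thymus and 7.35 to 7.81 (median 7.48) in testis. TRAT1, an adaptor bound to the T cell receptor, lay at 10.72 to 11.19 (median 10.93) in thymus and 6.12 to 6.74 (median 6.37) in testis. For all 3 genes every thymus array was above every array of any other tissue. The differences from testis were 4.52 ± 0.06, 4.43 ± 0.09 and 4.53 ± 0.11 (log2, limma estimate ± SE), with adjusted p of 7.44e-32, 3.05e-27 and 1.32e-25. All 3 markers were thus high on all 6 thymus arrays. They are among the 12 genes with the largest differences in these same data, and were chosen with earlier results known. The check is therefore a description. It shows T cell genes and cannot tell thymus from another tissue rich in T cells.

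**Figure D2:**
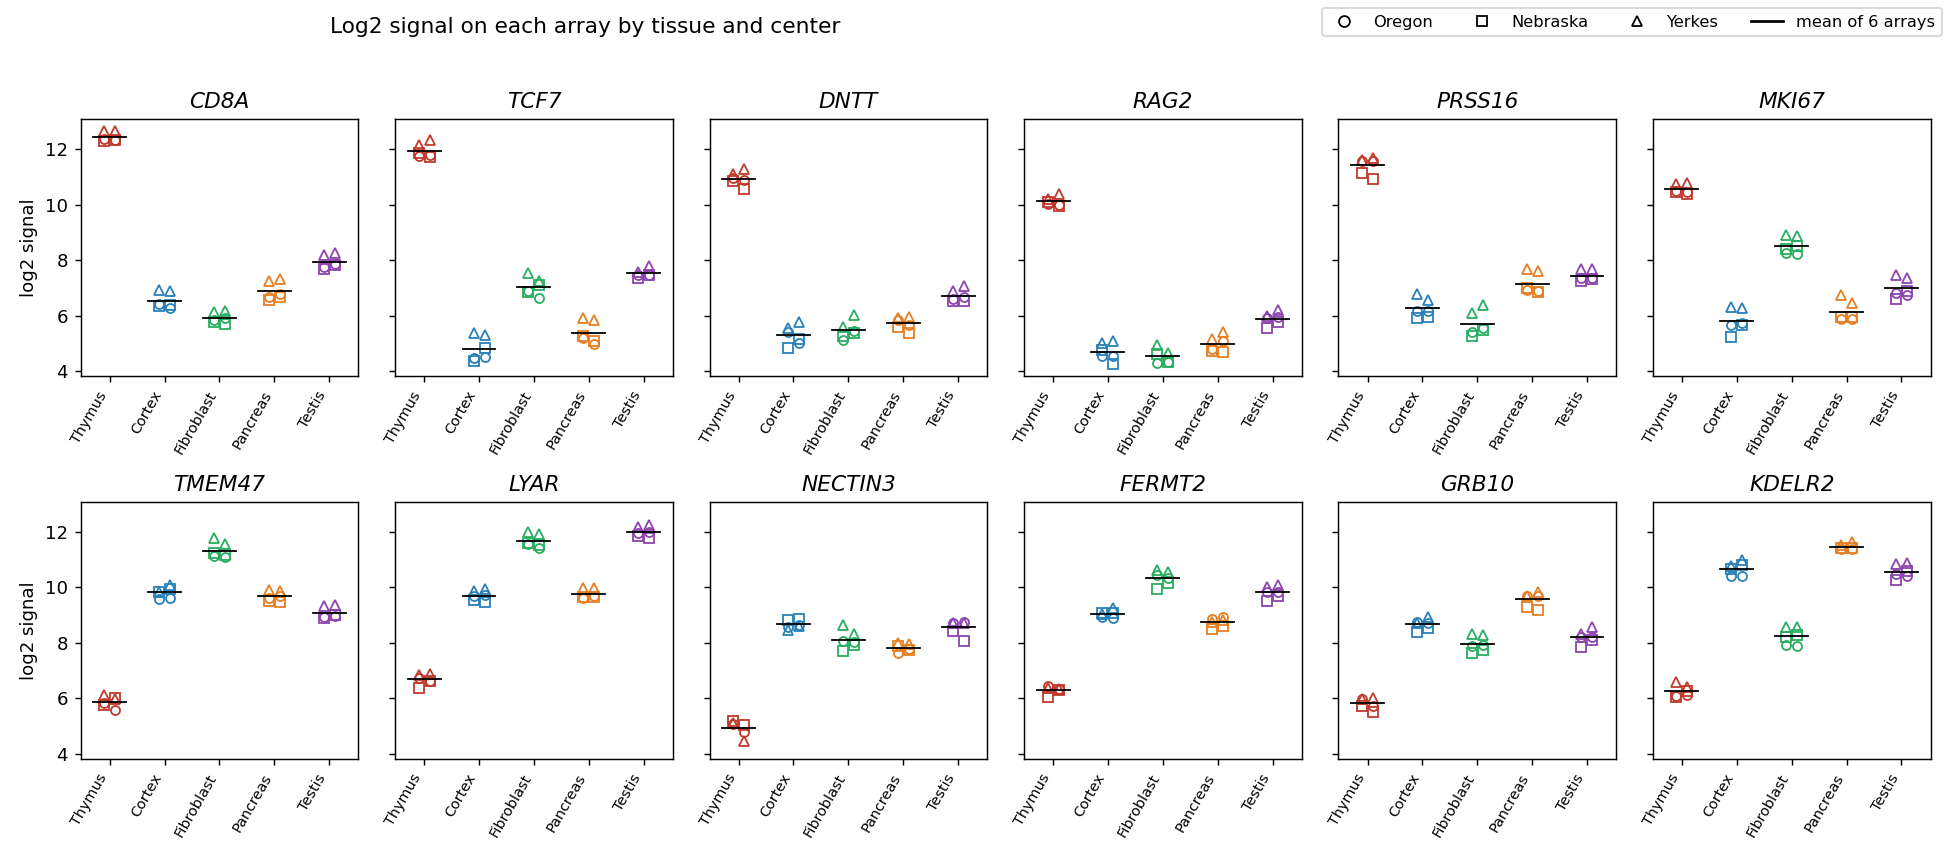
Log2 signal of 12 genes on each of the 30 arrays, with thymus at the left of each panel, a symbol for each center and a bar at the mean of 6 arrays. CD8A thymus arrays lie between 12.29 and 12.67, above all other arrays, and TMEM47 thymus arrays lie between 5.59 and 6.12, below all others.

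The T cell receptor and its coreceptors formed the clearest group. Only 5 of the 9 genes of this list were measured, and none of these encodes a chain of the mature receptor. CD8A and TRAT1 among them had already served to check the label. All 5 measured genes were higher in thymus (100% against 12% of all genes): CD4, CD8A, CD8B, PTCRA and TRAT1. Their mean signal was 10.75 to 11.27 across the thymus arrays and 6.76 to 7.38 across the testis arrays, the next tissue. PTCRA encodes the surrogate alpha chain that pairs with a new beta chain in immature thymocytes. It measured 10.39 to 10.63 (median 10.41) in thymus and 6.83 to 7.62 (median 6.98) in pancreas, a difference of 3.33 ± 0.08 (adjusted p = 6.9e-26). CD8B ran from 11.07 to 11.91 in thymus and from 6.92 to 7.71 in testis, a difference of 4.25 ± 0.07 (adjusted p = 5.37e-29). CD4 differed least, at 8.96 to 10.02 in thymus against 6.42 to 7.25 in pancreas, with 2.66 ± 0.06 between them (adjusted p = 1.35e-25). Macrophages and microglia also carry CD4 in primates.

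Of 16 measured genes that transmit the receptor's signal or mark the T cell surface, 14 were higher (87.5% against 12%) and none lower. PTPRC, the CD45 phosphatase of all white blood cells, measured 11.57 to 12.08 (median 12.03) in thymus and 7.79 to 8.31 (median 8.22) in testis, a difference of 3.80 ± 0.09 (adjusted p = 1.93e-26). SIT1, LCP2 and UBASH3A, an inhibitory adaptor, an activating adaptor and a phosphatase of the receptor, were higher by 3.62 ± 0.08, 3.60 ± 0.10 and 3.21 ± 0.08 (adjusted p of 1.54e-26, 1.25e-23 and 1.54e-25). ZAP70, the kinase that binds the phosphorylated receptor, rose by 2.25 ± 0.06 (adjusted p = 1.29e-23). SH2D1A, the adaptor of the SLAM family receptors, and SLA, an adaptor that in mice lowers receptor levels in double positive thymocytes, stood in the top 12 of all genes at 4.49 ± 0.12 and 4.33 ± 0.08 (adjusted p of 2.52e-24 and 3.22e-28). CD6 was at the low end with 0.25 ± 0.09 over pancreas (adjusted p = 0.0417), and 0.02 without the Yerkes arrays. The members not called were the adaptor LAT, at a mean of 10.09 in thymus and 0.32 below testis, and the kinase TXK, 0.06 above pancreas. LAT had another probeset that was higher in thymus, so its result depends on the probeset.

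Genes of receptor rearrangement and of the early thymocyte surface came next, with 7 of 11 higher (63.6% against 12%) and 1 lower, DCLRE1C, whose probesets disagree in direction. CD99 was not called, at 2.37 below fibroblasts. DNTT, the polymerase that adds untemplated bases at the junctions, measured 10.57 to 11.29 (median 10.94) in thymus and 6.52 to 7.07 (median 6.63) in testis, a difference of 4.24 ± 0.09 (adjusted p = 3.05e-27). RAG2, a subunit of the recombinase that cuts receptor genes, measured 9.97 to 10.41 (median 10.06) in thymus and 5.56 to 6.19 (median 5.94) in testis, a difference of 4.22 ± 0.09 (adjusted p = 2.63e-27). Neither gene had a thymus array that overlapped any other tissue. The lipid-presenting molecules CD1A, CD1B and CD1C, of which CD1A marks cortical thymocytes in primates, were higher by 4.24 ± 0.07, 4.15 ± 0.07 and 3.24 ± 0.07 (adjusted p of 4.16e-29, 3.02e-29 and 7.89e-27). ADA, the adenosine deaminase whose loss stops lymphocyte development, measured 11.65 to 12.22 in thymus and 7.31 to 8.06 in cortex, a difference of 4.35 ± 0.07 (adjusted p = 4.28e-30).

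ARPP21 stood apart in this list. It is known in brain and in thymocytes, and here it measured 10.75 to 11.34 in thymus and 9.37 to 9.62 in cortex, while fibroblasts and pancreas averaged 4.90 and 4.80. Its difference from cortex was 1.66 ± 0.11 (adjusted p = 7.83e-14).

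Of 21 transcription factors used in thymocytes, 12 were higher (57.1% against 12%) and none lower. GATA3, needed at several steps up to the CD4 lineage, measured 10.21 to 10.79 (median 10.44) in thymus and 5.94 to 6.46 (median 6.18) in testis, a difference of 4.29 ± 0.13 (adjusted p = 5.67e-23). MYB, which sustains precursors and double positive cells, was higher by 4.13 ± 0.08, E2F2 by 3.39 ± 0.07, TOX by 2.94 ± 0.13 and BCL11B, the factor of T lineage commitment, by 2.54 ± 0.16 (adjusted p of 6.78e-28, 7.36e-27, 9.89e-19 and 1.24e-14). IKZF1, encoding Ikaros, differed by 2.32 ± 0.10 from pancreas (adjusted p = 7.73e-19). ID3, an inhibitor of E proteins, differed by 1.22 ± 0.07 from fibroblasts, and RUNX1 by 0.23 ± 0.08 (adjusted p of 4.71e-15 and 0.0289), and both signs turned when the median over the probesets of the gene was used (-1.33 and -0.10). FOXP3, the factor of regulatory T cells, was not called, at a mean of 5.83 in thymus and 0.22 below pancreas. The other members not called were TCF12, SATB1, HES1, ZBTB7B, ZBTB17, SOX4, TCF3 and RUNX3. Across the centers TCF12 stood at -2.48 to -2.19 and SATB1 at -1.42 to -1.11 from fibroblasts, although another SATB1 probeset was higher in thymus. For 2 members of the list thymus had the lowest mean of the 5 tissues. DTX1 and IL2RG, chosen after their values were seen, are a Notch pathway gene and the shared cytokine receptor chain, and were higher by 3.47 ± 0.06 and 3.39 ± 0.08 (adjusted p of 5.01e-29 and 1.42e-26).

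Thymic epithelium was represented by 8 higher genes among 20 measured (40.0% against 12%), with a median of thymus minus the mean of the other tissues of 0.17 over the list and of -0.13 over all genes. PRSS16, a protease of cortical epithelium that serves CD4 selection in mice, measured 10.95 to 11.69 (median 11.59) in thymus and 7.24 to 7.68 (median 7.36) in testis, a difference of 3.99 ± 0.09 (adjusted p = 1.89e-26). TBATA, a protein of thymic epithelium that in mice is also made in brain and testis, measured 10.92 to 11.63 (median 11.02) in thymus and 6.36 to 7.16 (median 6.69) in testis, a difference of 4.45 ± 0.07 (adjusted p = 5.75e-30). For both genes all thymus arrays were above all other arrays. The chemokine CCL19, the cathepsin CTSV and PAX1, a factor of the pharyngeal pouch, were higher by 3.47 ± 0.12, 2.85 ± 0.14 and 2.56 ± 0.11 (adjusted p of 1.2e-21, 1.08e-17 and 1.24e-18). PSMB11, the catalytic subunit of the thymoproteasome, and TP63, needed for epithelial renewal, were higher by 1.55 ± 0.06 and 1.46 ± 0.10 (adjusted p of 2.39e-19 and 2.52e-13).

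Other members of the list differed little or were not called. AIRE, which lets medullary epithelium express tissue-restricted genes, differed by 0.19 ± 0.06 from pancreas (adjusted p = 0.00959), with 6.98 to 7.77 in thymus overlapping 6.75 to 7.61 in pancreas, and no longer passed without the Oregon or without the Nebraska arrays. FOXN1, the factor that builds the epithelium, averaged 6.90 in thymus and was 0.30 below pancreas, and the Notch ligand DLL4 averaged 7.36 and was 0.31 below pancreas. EPCAM, a marker of many epithelia, averaged 4.93 in thymus and was 4.99 below pancreas. The other members not called were KRT8, LY75, CCL25, CCL21, CXCL12, IL7, HOXA3, CD80 and CD40. Across the centers KRT8 stood at -1.53 to -0.93 from the highest other tissue. LY75 stood at -1.61 to -1.56 from testis and CCL25 at -1.13 to -0.76 from fibroblasts, although each had another probeset that was higher in thymus. The mean over the 20 genes was 7.69 to 8.21 on the thymus arrays and 6.91 to 7.5 on the pancreas arrays.

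Cell movement genes of leukocytes were higher in 9 of 13 (69.2% against 12%). CXCR4, the receptor that draws precursors to cortical epithelium, measured 10.96 to 11.87 (median 11.49) in thymus and 7.34 to 8.15 (median 7.63) in testis, a difference of 3.72 ± 0.07 (adjusted p = 1.09e-27). The small GTPase RAC2 was higher by 4.24 ± 0.07 and its regulator ARHGDIB by 3.80 ± 0.10 (adjusted p of 3e-29 and 3.34e-25), the ARHGDIB call being lost with the median over its probesets, at 0.10. The actin regulator CORO1A and the exchange factor DOCK2 were higher by 2.39 ± 0.08 and 1.56 ± 0.08 (adjusted p of 3.25e-21 and 2.69e-17). CCR7 and CCR4, receptors of maturing thymocytes that move to the medulla, were higher by 0.90 ± 0.10 and 0.59 ± 0.08 (adjusted p of 1.54e-08 and 2.98e-07). ITGB2, ITGB7, KLF2 and CCR8 were not called. Across the centers ITGB2 stood at -2.14 to -0.44 from fibroblasts and KLF2 at -1.35 to -0.86 from testis.

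Survival and selection genes were higher in 5 of 13 (38.5% against 12%). CD69, which appears on thymocytes after a receptor signal, was higher by 3.01 ± 0.10 and BCL2L11, the killer protein BIM of negative selection, by 1.62 ± 0.07 (adjusted p of 5.55e-22 and 8.94e-19). BCL2L1, the survival protein of double positive cells, was higher by 0.87 ± 0.11 (adjusted p = 1.81e-07). MCL1 was higher by 0.34 ± 0.07 (adjusted p = 0.000104), or -0.09 with quantile normalization of all arrays. BCL2 averaged 7.18 in thymus and was 0.10 below pancreas, and NR4A1 averaged 7.94 and was 0.56 below fibroblasts.

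DNA replication and mitosis genes were higher in 19 of 21 measured (90.5% against 12%). The nearest tissue was cultured fibroblasts for 18 of the 19, and no member exceeded its nearest tissue by more than 2.41. MKI67, the Ki-67 antigen of dividing cells, measured 10.38 to 10.78 (median 10.50) in thymus and 8.22 to 8.90 (median 8.45) in fibroblasts, a difference of 2.03 ± 0.08 (adjusted p = 1.73e-19). CCNE2, the cyclin of S phase entry, differed by 2.41 ± 0.12, TOP2A by 1.79 ± 0.12 and PCNA, the polymerase clamp, by 0.88 ± 0.07 (adjusted p of 3.76e-17, 4.94e-14 and 2.26e-12). MCM2 was the member nearest to testis, at 0.85 ± 0.08 (adjusted p = 5.2e-10). TYMS and E2F1 were not called, at 0.19 above fibroblasts and 0.28 below cortex. The list averaged 9.38 to 9.85 on the thymus arrays, 8.24 to 8.86 on the fibroblast arrays and 7.35 to 7.98 on the testis arrays, with no overlap between thymus and fibroblasts.

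Antigen presentation genes were higher in 4 of 8, against 12% of all genes. CD74, the invariant chain of MHC class II, measured 10.23 to 11.86 in thymus and 8.70 to 9.79 in testis, a difference of 1.70 ± 0.12 (adjusted p = 1.13e-13). The immunoproteasome subunit PSMB8, the peptide transporter TAP1 and cathepsin S, encoded by CTSS, were higher by 1.71 ± 0.06, 1.10 ± 0.07 and 1.24 ± 0.17 (adjusted p of 2.25e-21, 5.41e-15 and 7.28e-07). The CTSS difference from the nearest tissue was 0.14 at Oregon and 2.05 at Nebraska. CIITA, PSMB10, TAP2 and B2M were not called. Across the centers CIITA stood at -1.03 to -0.49 from pancreas and B2M at 0.17 to 0.26 from testis. PSMB10 had another probeset that was higher in thymus.

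**Figure D3:**
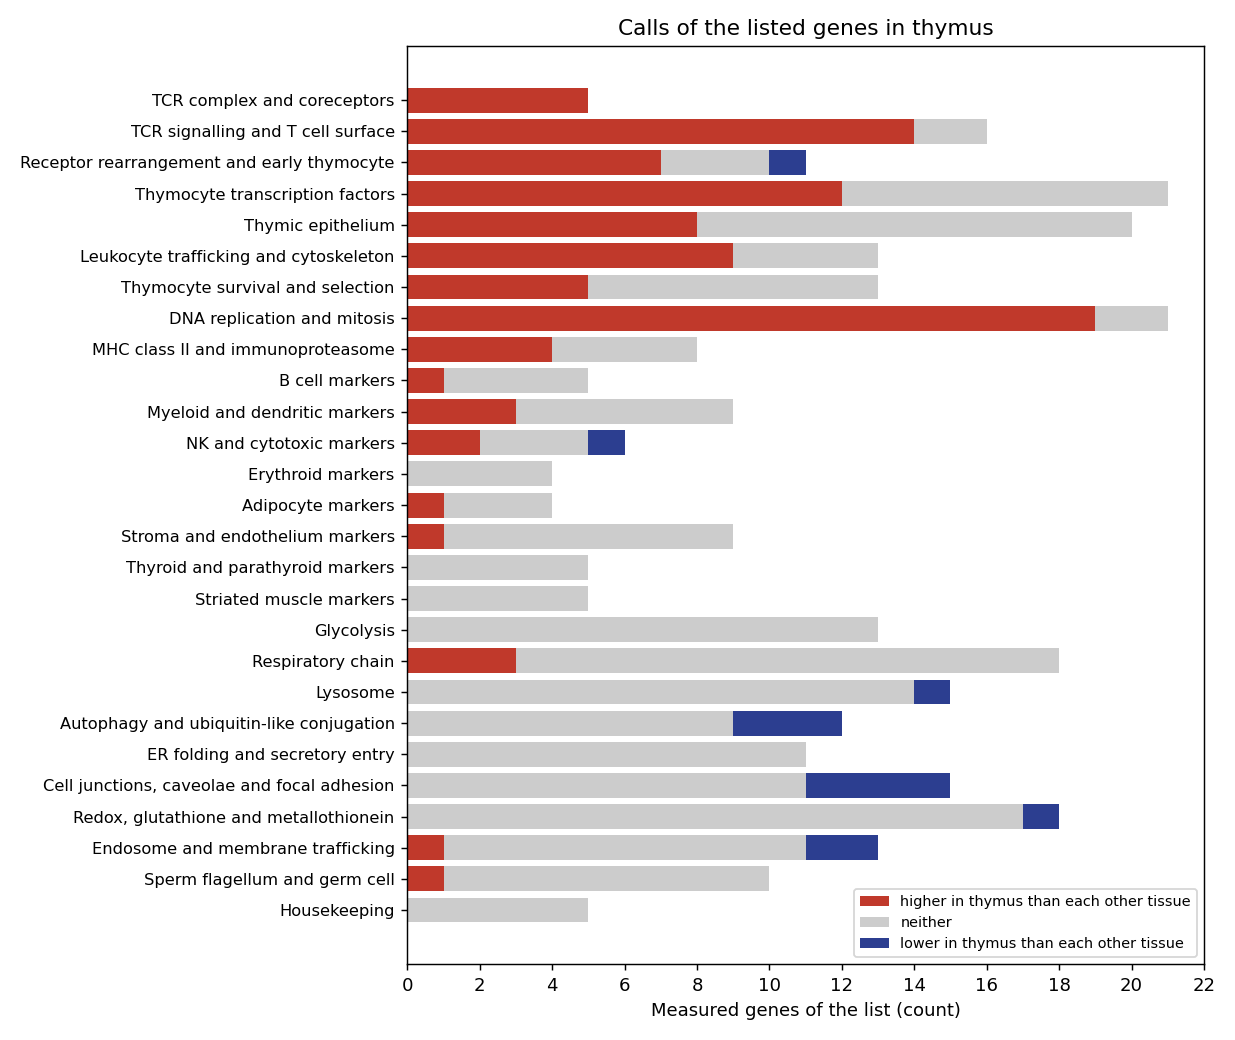
For each gene list, the bar counts measured genes that were higher in thymus than in each other tissue (red), neither (grey) or lower (blue). The 19 of 21 replication genes and 14 of 16 signalling genes are red, and no glycolysis gene is coloured.

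Markers of other cells that a thymus piece could hold were also read. Of 5 B cell markers 1 was higher (20.0% against 12% of all genes). This was MS4A1, which encodes CD20, at 2.53 ± 0.12 (adjusted p = 3.59e-18), while CD79A, CD79B, CD22 and BLK were not called. The B cell list averaged 6.91 to 7.63 on the thymus arrays and 6.47 to 7.28 on the pancreas arrays, so the groups overlapped, and 4 of its 5 members were higher when the pancreas arrays were left out. Of 9 myeloid and dendritic markers, 3 were higher (33.3% against 12%), namely lysozyme (LYZ) by 3.40 ± 0.09, TYROBP by 1.51 ± 0.08 and CLEC9A, which marks cross-presenting dendritic cells, by 1.34 ± 0.11 (adjusted p of 1.57e-24, 7.15e-17 and 1.28e-11). CLEC9A stood at percentile 50.8 of the thymus arrays. The list averaged 7.08 to 7.56 in thymus and 6.71 to 7.29 in cortex, and CD68 was 3.42 below cortex. ITGAM, CD14, AIF1, CSF1R and MARCO were also not called, although AIF1 had another probeset that was higher. Across the centers ITGAM stood at -2.62 to -1.94 from cortex and CD14 at -1.56 to -1.23 from fibroblasts. The list median of thymus minus the mean of the other tissues was 0.04. Of 6 NK and cytotoxic markers, 2 were higher (33.3% against 12%) and 1 lower (16.7% against 8.18%). Granzyme B (GZMB) was higher by 2.48 ± 0.09 and NKG7 by 0.20 ± 0.07 (adjusted p of 7.46e-21 and 0.0351), the NKG7 call being lost without the Nebraska or the Yerkes arrays. GZMK was lower, at -0.59 ± 0.10 from fibroblasts (adjusted p = 3.6e-05). Its signal was low in both, at percentile 12.1 of the thymus arrays and 28.1 of the fibroblast arrays, against 97.3 in cortex and 93.1 in testis. GZMA, KLRD1 and GNLY were not called, at 2.93 below testis, 1.84 below fibroblasts and 0.59 below pancreas, and the list averaged 7.69 in thymus, 7.81 in pancreas and 8.31 in testis. KLRD1 and GNLY each had another probeset that was higher in thymus.

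The genes S100A8, S100A9, ELANE and JCHAIN of granulocytes and plasma cells, chosen after their values were seen, were also above every other tissue. S100A8 and S100A9, the calprotectin subunits of neutrophils and monocytes, measured 9.20 to 9.93 and 9.58 to 10.21 in thymus, against 5.83 to 6.67 and 6.09 to 7.07 in pancreas. The differences were 3.46 ± 0.11 and 3.51 ± 0.10 (adjusted p of 1.24e-22 and 3.16e-23). ELANE, neutrophil elastase, was higher by 3.01 ± 0.07 and JCHAIN, the joining chain of secreted antibodies, by 3.03 ± 0.11 (adjusted p of 2.73e-25 and 6.27e-21). Their part in the other results was not tested.

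No erythroid, thyroid and parathyroid or striated muscle marker was called in either direction on the probeset used, out of 4, 5 and 5 measured. CALCA of the thyroid list had another probeset that was higher in thymus. HBA and HBB were 1.14 and 1.26 below pancreas. Of 4 adipocyte markers LEP was called, higher by 0.64 ± 0.07 (adjusted p = 4.32e-09), or 0.04 and not called with the median over its probesets. FABP4 averaged 9.61 in thymus and 1.33 more in pancreas, and the adipocyte list averaged 8.21 to 8.60 in thymus and 7.71 to 8.30 in pancreas. Of 9 stroma and endothelium markers PECAM1, on endothelium and leukocytes, was higher by 1.43 ± 0.10 (adjusted p = 3.94e-13). The collagen genes COL1A1 and COL1A2 were 5.16 and 4.51 below fibroblasts.

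The genes lower in thymus than in every other tissue were seldom on the gene lists, which held 66 of the 470 higher genes and 1 of the 158 lower genes, TJP1. TMEM47, a membrane protein of cell junctions, was the lowest, with 5.59 to 6.12 (median 5.91) in thymus and 8.89 to 9.35 (median 8.98) in testis. Fibroblasts, at a mean of 11.33, were highest. Its difference from testis was -3.20 ± 0.08 (adjusted p = 5.96e-26).

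NECTIN3, an immunoglobulin-like adhesion molecule of adherens junctions, measured 4.47 to 5.17 (median 5.04) in thymus and 7.62 to 8.01 (median 7.84) in pancreas, a difference of -2.89 ± 0.13 (adjusted p = 1.67e-18). FERMT2, or kindlin-2, which activates integrins in adherent cells, measured 6.05 to 6.46 (median 6.33) in thymus and 8.51 to 8.93 (median 8.79) in pancreas, a difference of -2.44 ± 0.08 (adjusted p = 2.96e-22). In both genes the thymus arrays lay below all other arrays.

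DNER, a membrane protein of neurons that binds Notch, differed by -2.91 ± 0.09 and SCRN1 by -2.57 ± 0.08 (adjusted p of 1.87e-22 and 2.15e-22). FGF12, a growth factor homologue that stays in the cell and binds sodium channels, differed by -2.22 ± 0.12 (adjusted p = 9.05e-17). These 3 genes were highest in cortex, at means of 10.27, 11.20 and 10.48, but their nearest tissue was fibroblasts, pancreas and testis in that order.

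The other 6 of the 12 lowest genes were GNAI1, PPP1R14A, SEMA3C, GRB10, DDAH1 and LYAR. GNAI1, an inhibitory G protein subunit, differed by -2.27 ± 0.09, PPP1R14A, an inhibitor of myosin phosphatase, by -2.26 ± 0.11 and SEMA3C, a secreted guidance cue, by -2.17 ± 0.09 (adjusted p of 1.76e-20, 1.23e-17 and 2.1e-19). GRB10, an adaptor that restrains insulin receptor signals, differed by -2.15 ± 0.07 and DDAH1, which clears an inhibitor of nitric oxide synthesis, by -2.15 ± 0.08 (adjusted p of 2.33e-22 and 9.86e-21). LYAR, a nucleolar protein of cell growth, measured 6.38 to 6.86 (median 6.68) in thymus and 9.48 to 9.93 (median 9.71) in cortex, a difference of -3.03 ± 0.06 (adjusted p = 4.08e-28), on the probeset used for it.

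**Figure D4:**
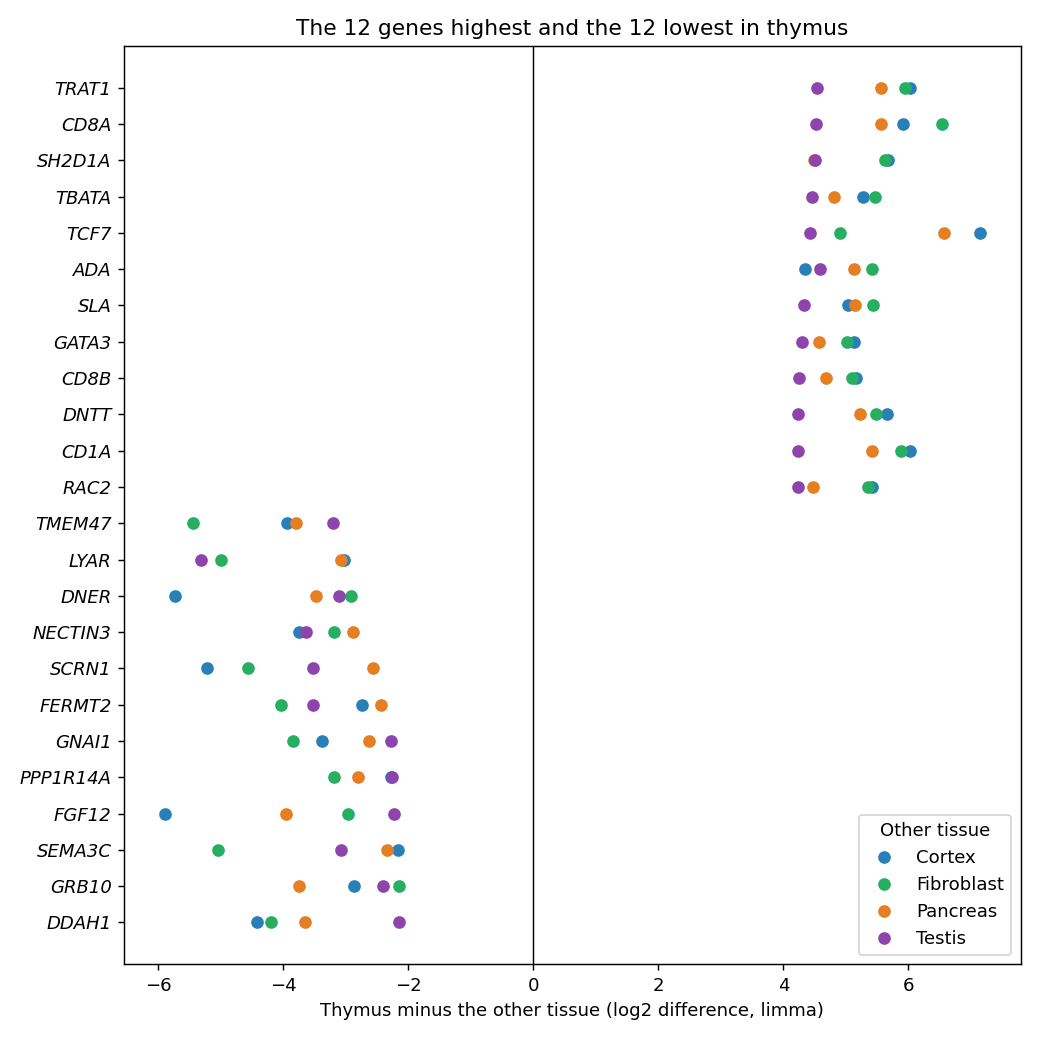
Log2 difference of thymus from each other tissue for the 12 genes with the largest difference from the nearest tissue in each direction, 1 colour per tissue. The nearest tissue sets the order, from 4.53 for TRAT1 among the higher genes and from -3.20 for TMEM47 among the lower genes.

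Of the list on cell junctions, caveolae and focal adhesion, 4 of 15 genes were lower and none higher (26.7% against 8.18%). TJP1, the scaffold ZO-1 of tight junctions, measured 6.55 to 6.85 (median 6.66) in thymus and 8.20 to 8.62 (median 8.38) in pancreas, a difference of -1.74 ± 0.07 (adjusted p = 2.12e-20). The catenins CTNND1 and CTNNA1 differed by -0.94 ± 0.08 and -0.53 ± 0.08, and ACTN4 by -0.78 ± 0.17 (adjusted p of 5.54e-11, 6.94e-06 and 0.000408), the ACTN4 call being lost without the Oregon arrays, at -0.58. Thymus was not the lowest tissue for the other 11 genes. CAV1 and ITGB1, for example, were 4.49 and 2.65 below fibroblasts and were not called.

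A few further lower genes, chosen after their values were seen, encode proteins of adhesion sites and the actin cytoskeleton. PTK2, the focal adhesion kinase, differed by -1.93 ± 0.06, PARVA by -1.61 ± 0.06, TNS3 by -1.75 ± 0.08 and DLC1 by -1.58 ± 0.08 (adjusted p of 8.99e-22, 1.05e-20, 5.85e-18 and 8.25e-17), the PTK2 call being lost with the median over its probesets, at -0.26. NCKAP1, a subunit of the WAVE complex that builds branched actin, differed by -1.92 ± 0.08, and DSTN, which severs actin filaments, by -1.43 ± 0.07 (adjusted p of 1.45e-19 and 1e-16).

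FERMT2, PARVA and NCKAP1 each have a blood cell relative on the array, also chosen after the values were seen, and each pair moved in opposite directions in thymus. FERMT3, the kindlin of blood cells, measured 9.34 to 9.95 in thymus and 6.76 to 7.56 in pancreas, and was higher by 2.49 ± 0.08 (adjusted p = 9.91e-23), whereas FERMT2 differed by -2.44. PARVG, the parvin of blood cells, was higher by 1.75 ± 0.08 (adjusted p = 6.33e-19), whereas PARVA differed by -1.61. NCKAP1L, known as HEM1, was higher by 2.18 ± 0.13 (adjusted p = 8.49e-15), whereas NCKAP1 differed by -1.92. The GTPase pair was less symmetric, since RAC2 was higher by 4.24 and RAC1 lay 0.58 below cortex and 0.30 above pancreas. PTK2B, the relative of PTK2 in blood cells and neurons, was 0.48 below cortex and 2.70 above fibroblasts.

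KDELR2, WLS, PLOD2 and TCEAL4 were also lower and were chosen after their values were seen. KDELR2, the receptor that returns escaped proteins to the endoplasmic reticulum, measured 6.05 to 6.57 (median 6.19) in thymus and 7.89 to 8.59 (median 8.25) in fibroblasts, a difference of -2.0 ± 0.07 (adjusted p = 7.23e-21), and pancreas averaged 11.46. WLS, the carrier of Wnt proteins, differed by -1.77 ± 0.07, PLOD2, a collagen lysyl hydroxylase, by -1.92 ± 0.10 and TCEAL4 by -2.11 ± 0.08 (adjusted p of 1.19e-20, 1.98e-16 and 2.94e-20). The list of endoplasmic reticulum folding and entry genes had none of 11 called in either direction.

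Other general cell functions gave few calls. Autophagy genes were lower in 3 of 12 (25.0% against 8.18% of all genes), namely SQSTM1 by -0.39 ± 0.06, GABARAP by -0.24 ± 0.07 and ATG7 by -0.44 ± 0.06 (adjusted p of 1.23e-06, 0.00541 and 8.66e-07). In the lysosome list ATP6AP1 differed by -0.23 ± 0.05 (adjusted p = 0.00105), in the redox list MT2A by -0.31 ± 0.09 (adjusted p = 0.00509), and in the endosome list RAB5C by -0.60 ± 0.07 and RAB2A by -0.32 ± 0.09 (adjusted p of 3.47e-08 and 0.00804), with RAB10 higher by 0.45 ± 0.13 (adjusted p = 0.0103). The calls of GABARAP, ATP6AP1, MT2A, RAB2A and RAB10 were each lost when at least 1 center was left out, those of SQSTM1 and ATG7 with the median over probesets, and RAB5C then stood at 0.77. No autophagy call held under all alternatives. Respiratory chain genes were higher in 3 of 18 (16.7% against 12% of all genes), none by more than 0.33, and NDUFA2 turned to -0.04 with quantile normalization of all arrays. No glycolysis gene among 13 and no housekeeping gene among 5 was called, and GAPDH averaged 12.83 in thymus and 1.06 more in cortex. In the germ cell list ODF2 was higher by 0.80 ± 0.09, with fibroblasts nearest (adjusted p = 1.11e-08), and 9 of 10 members were not called. Over all 27 lists, 96 of 303 measured genes were higher and 13 lower, beside 12% and 8.18% of all genes. The lists were chosen with earlier results of these data known, so these totals are a description.

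Testis was the tissue most like thymus on the whole array. The Spearman correlation between thymus arrays averaged 0.975 over 15 pairs. With testis it averaged 0.854, with fibroblasts 0.803, with pancreas 0.752 and with cortex 0.725, each over 36 pairs of arrays that share the same probesets. Among the 161 genes at least 2 higher, testis was the nearest tissue in 76, and the median difference was 3.01 from testis, 3.33 from pancreas, 3.44 from fibroblasts and 3.63 from cortex. Against single tissues, genes higher by at least 1 numbered 1027 for testis (7.27%), 1281 for fibroblasts (9.06%), 2135 for cortex (15.1%) and 2440 for pancreas (17.3%). Genes lower by at least 1 numbered 1484 for testis (10.5%), 1874 for fibroblasts (13.3%), 1915 for cortex (13.5%) and 1202 for pancreas (8.50%). Of all calls of at least 1 against each tissue, 74.8% were higher in thymus, and 62.7% when the pancreas arrays were left out. The excess was seen under the rule that compares with every tissue, and its cause was not tested. Against the mean of the other 4 tissues, 4619 genes were higher (32.7%) and 6877 lower (48.7%). By at least 1 these were 1318 (9.33%) and 1380 (9.76%).

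The genes whose pattern was most like that of CD8A over the 30 arrays, after center means were removed, were GMFG (Pearson r of 0.9977), CXCR4 (0.9977), PRAM1 (0.9951), RAG2 (0.995) and IL2RG (0.9934). These values rest on 5 tissues and are a description. GMFG, an actin regulator of blood cells, and PRAM1, an adaptor described in neutrophils, were higher by 3.93 ± 0.07 and 4.08 ± 0.08 (adjusted p of 3e-29 and 4.08e-28).

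A gene can have several probesets, and the probeset of highest mean signal stood for it. For the 12 highest genes, 10 of 11 other probesets were also called higher, the exception being 1 of ADA. For the 12 lowest genes, 15 of 17 were also called lower, both exceptions being of LYAR, where 1 other probeset was higher by 0.52 and 1 was not called. All 7 probesets of IKZF1 were higher and all 4 of KDELR2 lower. Among the 470, 227 had another probeset, and in 4 of these a further probeset was called lower. Among the 158, 99 had another probeset, and in 5 a further one was called higher.

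The choice of probeset also decided some calls. CD1E, the thymocyte CD1 molecule that stays inside the cell, was not called on the probeset used, which averaged 11.96 in thymus and 12.12 in testis. Its other probesets were higher by 3.64 and 4.33. In CD28 the probeset used was higher by 0.79 ± 0.10 (adjusted p = 6.87e-08) and another by 3.02, and in PTPN22 the values were 0.37 ± 0.08 (adjusted p = 0.00064) and 2.43. DCLRE1C, which encodes the Artemis nuclease that opens receptor gene hairpins, differed by -0.83 ± 0.09 on the probeset used (adjusted p = 7.3e-09) and higher by 0.91 on another, so its direction was not settled. ARHGDIB was higher by 3.80 on the probeset used, and its other probesets were 0.84 and 0.85 below testis. For PTK2, 3 of 5 probesets were lower and the rest not called. Among uncalled list members, 19 had another probeset that was higher in thymus, among them LAT, CD1E, SATB1, CCL25, PSMB10, KLRD1, GNLY and ACTB. The rest were XRCC4, LY75, AIF1, CALCA, NDUFV2, UQCRC1, ATP5F1B, MAP1LC3B, SOD2, MGST3 and RAB5A, so general cell functions were also among them. The same count over all genes and the count of probesets that were lower were not made, so the number is a description.

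**Figure D5:**
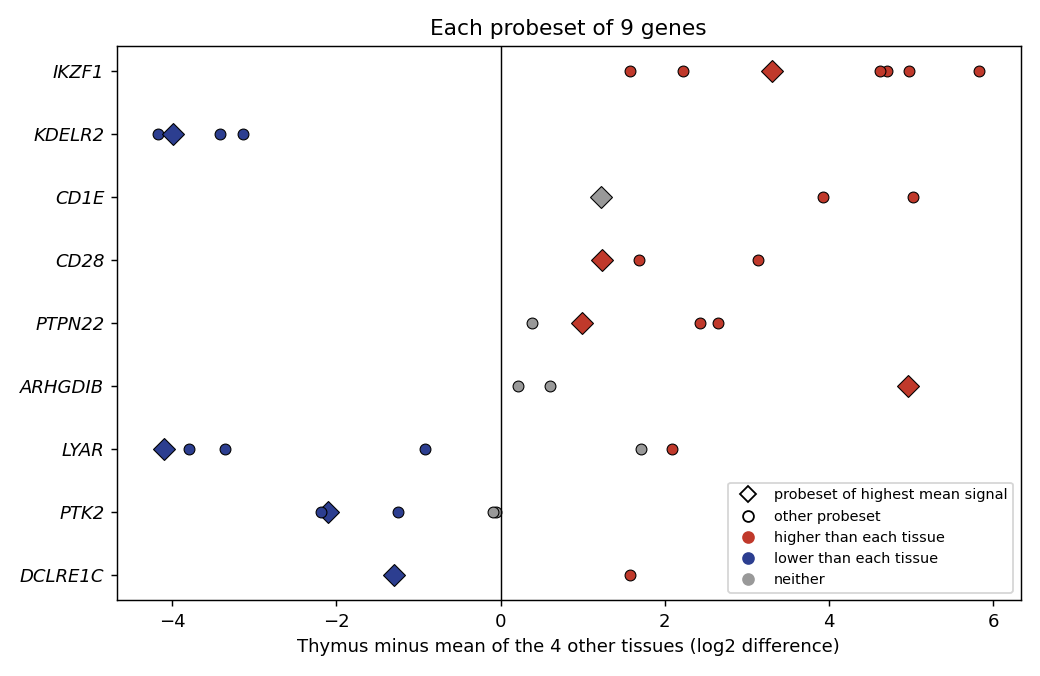
Thymus minus the mean of the 4 other tissues (log2) for each probeset of 9 genes; diamonds mark the probeset used for the gene, circles the others, and colours the call against each tissue. All IKZF1 probesets are red and all KDELR2 probesets blue, while LYAR and DCLRE1C have probesets of both colours.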

How the data were processed

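The authors labelled aliquots of 1 RNA per tissue at 3 centers and hybridized them to rhesus GeneChips. The deposited log2 values cover 52865 probesets on 30 arrays. According to the methods, the authors corrected background as in MAS 5.0, quantile normalized within each center and summarized probesets with RMA. Arrays of Yerkes were brighter (mean log2 signal 6.91) than those of Oregon (6.33) and Nebraska (6.36), so center was a term of the main models. The number of arrays limits the precision.

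Tissue and center were fitted with limma 3.58.1 in R 4.3.3, after tests on simulated data, and the largest of 4 p-values was adjusted (Benjamini-Hochberg) over all probesets. Probesets with 1 symbol numbered 24969, those with several 361 and those with none 27535; symbols come from the platform annotation. Errors of differences are SEs. Named were the 12 largest differences per direction, CD8A, TCF7, TRAT1, list members and the genes most like CD8A, with symbols starting with LOC counted only. Members, lists and tests were chosen with earlier results of these data known. Alternatives changed normalization, center, aliquots, probesets, filter and tissues. Aliquots with the same number did not deviate together in a constant direction, and their correlations were largest in size at Yerkes. Planned promoter motifs were not analysed here.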

Additional observations from a re-analysis of the deposited data

Results flagged for a closer look

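The difference of thymus from the mean of the other tissues was compared between centers for 146 named genes, and in 4 it differed by at least 1 with an adjusted p under 0.05 (limma, tissue by center). For CD7 the difference was 2.71 at Yerkes and 1.54 at Nebraska, 1.17 apart. For BCL11B it was 3.47 at Oregon and 2.15 at Yerkes, 1.32 apart. For CTSS it was 2.32 at Nebraska and 1.12 at Oregon, 1.2 apart. For NCKAP1L, Oregon and Nebraska were 1.25 apart. Over all genes, 23 met this rule (0.163%), 9 of them among the 470 higher genes and 1 among the 158 lower genes. All 4 named genes were higher than each other tissue in the pooled fit, and the part of the center in their size was not tested.

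In 2 of 146 named genes a single thymus array stood away from the other 5 (Dixon's test, which chance passes in about 1 group in 20). The lowest MS4A1 array was at 8.23, against 8.38 to 8.46 for the others. The highest RAB2A array was at 8.96, against 8.78 to 8.83 for the others.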

How the results depend on the processing

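Without a center term, 948 genes were higher (1691 with it) and 458 lower (1156 with it). Of these calls against each tissue, 67.4% in place of 59.4% were higher. Genes that differed from the mean of the other tissues then numbered 7385 (11496 with it). A model of 2 groups, thymus and all other arrays, gave 5200 such genes. Without the pancreas arrays 316 genes in place of 158 were lower by at least 1. With the replicate block, the aliquot number within each center, 1667 genes were higher, 1126 lower, 470 and 158 by at least 1 and 11414 different from the mean, and CD6 alone of the named calls was lost. The deviations of same-numbered aliquots correlated between -0.198 and 0.22 in 12 comparisons. At Yerkes the values were 0.22 with cortex, 0.163 with testis and -0.198 with fibroblasts. The main model used no pairing. With quantile normalization of all 30 arrays the sign turned for MCL1 (-0.09) and NDUFA2 (-0.04), and with the median over probesets for RUNX1 (-0.10), ID3 (-1.33) and RAB5C (0.77), and the cause was not tested. Among the named calls, 24 no longer passed without the center term, 10 with aliquots averaged, 8, 9 and 5 without Oregon, Nebraska or Yerkes, 5 with quantile normalization and 7 with the median over probesets. The lost calls were mostly small, such as AIRE, which no longer passed with aliquots averaged or without Oregon or Nebraska, NKG7, and CD6, which fell to 0.02 without Yerkes. Larger ones were ARHGDIB (0.10) and PTK2 (-0.26) with the median over probesets. Without pancreas, 4 in place of 1 of the B cell markers were higher. Arrays limit genes of low signal, as values near the background of the array have little room to be lower.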
